A study of Mus musculus with 18 samples.

Results

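The cytosolic ribosomal protein genes encode the Rpl proteins of the large and the Rps proteins of the small subunit of the ribosome that translates cytosolic mRNA. Each ribosome carries its proteins in near-fixed proportion, and their genes are expressed in every cell. A few of them have close copies, such as Rpl3l for Rpl3, that are made in particular tissues, and several members are used as reference genes in expression studies of cartilage and other tissues. Members were taken by symbol alone, as Rpl or Rps followed by a number, with Rplp0, Rplp1, Rplp2 and Rpsa, and without the S6 kinases. They comprised 62 genes of 11499 annotated in the table, 37 of the large and 25 of the small subunit, read by 85 of 22999 probes. Where a gene had several probes, the brightest on average stands for it, and all signals are on the log2 scale.

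The tissue was articular cartilage, dissected under a microscope off the medial tibial plateau of male C57Bl6/J mice after destabilisation of the medial meniscus (DMM), a joint-instability model of osteoarthritis. The right knee was operated and the left, contralateral knee of the same mice was left unoperated as the control, with no sham-operated knees in the study. Cartilage was taken 2, 4 and 8 weeks after surgery, at ages of 12, 14 and 18 weeks. Each of the 6 groups had 3 arrays, and each array held RNA pooled from 8 knees and amplified before labelling. The control cartilage therefore came from operated animals, age rose with time after surgery in both knees, and the spread between arrays was a spread between pools. P-values measure that spread only, and groups of 3 arrays limit the precision.

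Of 12 chondrocyte genes, Col2a1, Acan, Comp, Sox9, Chad and Cytl1 each gave a mean signal above 11, while Matn1, Col11a2, Col9a1 and Cnmd gave signals between 6.15 and 6.73. The mean over the list stayed between 9.65 and 10.13 in all 18 arrays, while single genes went both ways. At 2 weeks limma called Cytl1 (−1.45), Ucma (−1.45) and Chad (−0.79) lower in DMM cartilage and Col9a1 (1.66) higher, and at 4 weeks Ucma (−0.78) lower. Skeletal muscle genes were also read in every group, and the mean of 12 of them ran from 5.93 to 9.75 between arrays. The mean of 7 fibroblast and synovium genes was higher in DMM cartilage without overlap at each time. It was 10.98 to 11.08 against 9.21 to 10.23 in contralateral arrays at 2 weeks. At 4 weeks it was 10.22 to 10.72 against 9.28 to 9.96, and at 8 weeks 10.11 to 10.67 against 9.62 to 9.92. Of the 7 genes, 5, 2 and 0 were called higher at these times. Beside these and the chondrocyte calls, 6.63%, 0.639% and 0% of all probes were called in either direction at 2, 4 and 8 weeks. The mean of 7 neutrophil genes was 6.70 to 8.10 over the 6 arrays at 2 weeks, 8.86 to 10.19 at 4 weeks and 6.66 to 9.74 at 8 weeks. From 2 to 4 weeks limma called 7 of these 7 genes higher in DMM and 4 of 7 in contralateral cartilage. Of all probes, 2.54% and 0.148% were called in either direction in these 2 comparisons. At 2 weeks the mean of 4 adipocyte genes was lower in DMM arrays, 7.47 to 7.73 against 8.02 to 10.58. So was that of 3 erythroid genes, 6.95 to 7.49 against 7.74 to 8.66. The macrophage mean was higher there, 7.33 to 7.56 against 6.77 to 7.06, as were the osteoclast and endothelium means, all without overlap. At 4 and 8 weeks these means overlapped between the knees, and the osteoblast and lymphocyte means did so at each time. The part of these shifts in the members' values was not tested. In such bulk tissue, fewer cells of a type and less RNA per cell cannot be told apart.

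The promoters of 8 members are shown, namely all those whose DMM arrays stood wholly above or below the contralateral arrays in 2 or more weeks. Each is the stretch of 120 bases just before the most upstream start of the gene, 5′ to 3′ on the gene's strand, from RefSeq on GRCm38.p6. Capitals mark the E-box CANNTG, the ETS-family motif CCGGAAG and the GC box GGGCGG on either strand, and TATAAA was searched as well. Rpl3l lies at chr17:24727706-24727825 (plus strand), Rps27l at chr9:66945966-66946085 (plus), Rps9 at chr7:3703921-3704040 (plus), Rps4x at chrX:102189392-102189511 (minus), Rps13 at chr7:116334191-116334310 (minus), Rps3a1 at chr3:86142669-86142788 (minus), Rps23 at chr13:90923002-90923121 (plus) and Rps25 at chr9:44407594-44407713 (plus).
Rpl3l: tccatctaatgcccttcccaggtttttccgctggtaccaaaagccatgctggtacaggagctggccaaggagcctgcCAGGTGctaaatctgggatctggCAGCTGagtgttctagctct
Rps27l: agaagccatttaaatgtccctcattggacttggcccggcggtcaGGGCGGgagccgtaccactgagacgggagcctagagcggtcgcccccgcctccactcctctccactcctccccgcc
Rps9: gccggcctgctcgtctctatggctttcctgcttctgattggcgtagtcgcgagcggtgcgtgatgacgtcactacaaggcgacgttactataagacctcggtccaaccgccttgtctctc
Rps4x: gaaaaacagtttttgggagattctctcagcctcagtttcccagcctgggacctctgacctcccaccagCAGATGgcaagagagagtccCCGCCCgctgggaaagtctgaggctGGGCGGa
Rps13: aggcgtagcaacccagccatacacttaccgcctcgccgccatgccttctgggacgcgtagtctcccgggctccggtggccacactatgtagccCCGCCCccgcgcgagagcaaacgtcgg
Rps3a1: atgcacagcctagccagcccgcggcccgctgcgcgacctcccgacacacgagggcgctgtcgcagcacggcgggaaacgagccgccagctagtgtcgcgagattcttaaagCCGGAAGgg
Rps23: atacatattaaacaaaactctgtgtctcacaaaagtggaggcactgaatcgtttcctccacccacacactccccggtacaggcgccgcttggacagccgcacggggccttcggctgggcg
Rps25: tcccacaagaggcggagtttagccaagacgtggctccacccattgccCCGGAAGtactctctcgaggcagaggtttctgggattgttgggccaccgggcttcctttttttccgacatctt
The Rpl3l stretch held 2 E-boxes, Rps4x held 1 E-box and 2 GC boxes, Rps27l and Rps13 each held 1 GC box, Rps3a1 and Rps25 each held 1 CCGGAAG, and Rps9 and Rps23 held none of the 4 motifs. Promoters were found for 51 of the 62 members. In the 250 bases before the start, CCGGAAG was present in 33.3% of the 51 members and in 7.07% of all 27025 promoters of the table. GGGCGG was present in 49% of members and 33% of all promoters, CANNTG in 47.1% and 66.1%, and TATAAA in 7.84% and 13%. Member promoters had a median GC content of 58.4%, against 52.0% for all. These matches describe the letters only.

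Most members gave a bright and steady signal in this cartilage. Their mean signals ran from 5.61 for Rpl6 to 13.95 for Rpl23, with a median of 9.70, where the median of all probes was 6.53. Of the 62 genes, 54 lay above the median of all probes and 41 above their 90th percentile, while 8 lay below the median. A bead signal depends on the probe as well as on the RNA, so these figures describe signal and do not rank the transcripts. Many ribosomal protein genes have processed pseudogenes that a probe may also read, and this was not tested.

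The spread between replicate arrays was smaller for the members than for the probes as a whole. The residual SD over the 6 groups had a median of 0.148 for the 62 members, 0.214 for all probes and 0.207 for probes brighter than the median. Probes as bright as the members were not compared, so the smaller spread is not shown to be particular to the members. The steadiest members were Rpl23 (0.051), Rpl32 (0.064) and Rps3a1 (0.069). Rpl23 took only the values 13.91 and 14.01 on the 18 arrays. Those values are close to the top of the scale, 14.67, where a quantile-normalised signal has little room to move. The most variable members were Rpl3l (0.748), Rpl17 (0.361) and Rpl22 (0.342).

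**Figure D1:**
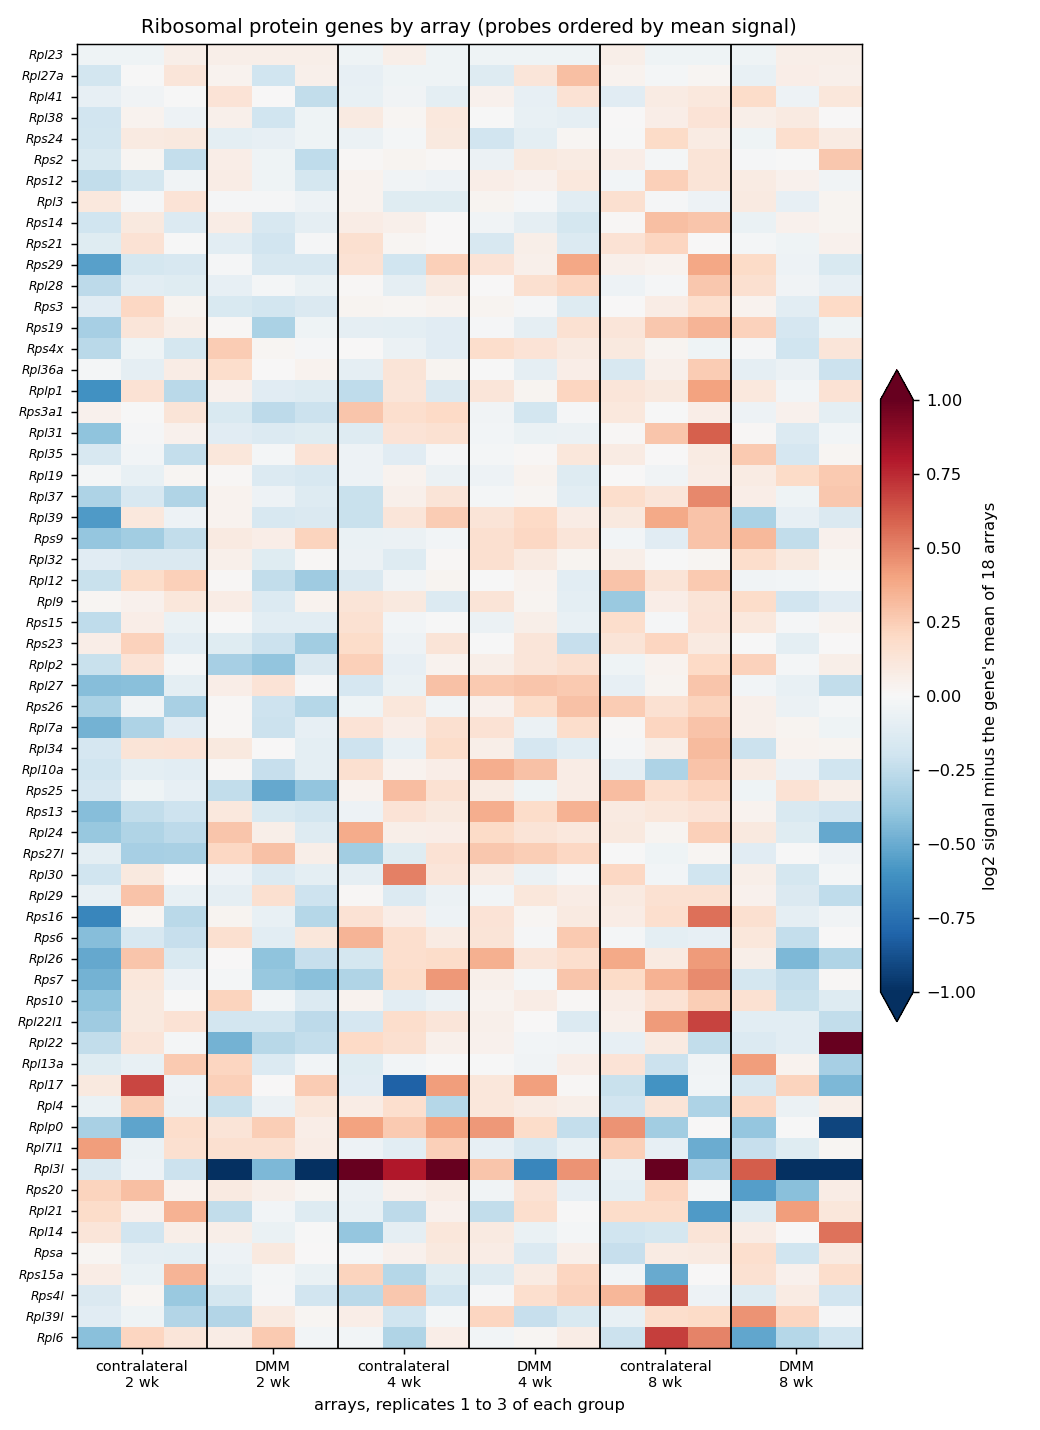
Heat map of the 62 members (vertical axis, ordered by mean signal of the probe) in the 18 arrays (horizontal axis, 3 per group), coloured by log2 signal minus the gene's mean of 18 arrays, with colours ending at −1 and 1. Most members keep pale colours across all arrays, and Rpl3l has the widest swings.

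Averaged over the 62 members, the signal moved little between arrays. In contralateral cartilage the 3 arrays averaged 9.07, 9.26 and 9.22 at 2 weeks, 9.28, 9.28 and 9.34 at 4 weeks, and 9.31, 9.37 and 9.40 at 8 weeks. In DMM cartilage they averaged 9.25, 9.17 and 9.16 at 2 weeks, 9.33, 9.30 and 9.32 at 4 weeks, and 9.30, 9.19 and 9.23 at 8 weeks. Operated and contralateral arrays overlapped at 2 and 4 weeks. At 8 weeks the highest DMM array, 9.30, lay just under the lowest contralateral array, 9.31. The lowest of all 18 arrays was replicate 1 of the 2-week contralateral group.

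**Figure D2:**
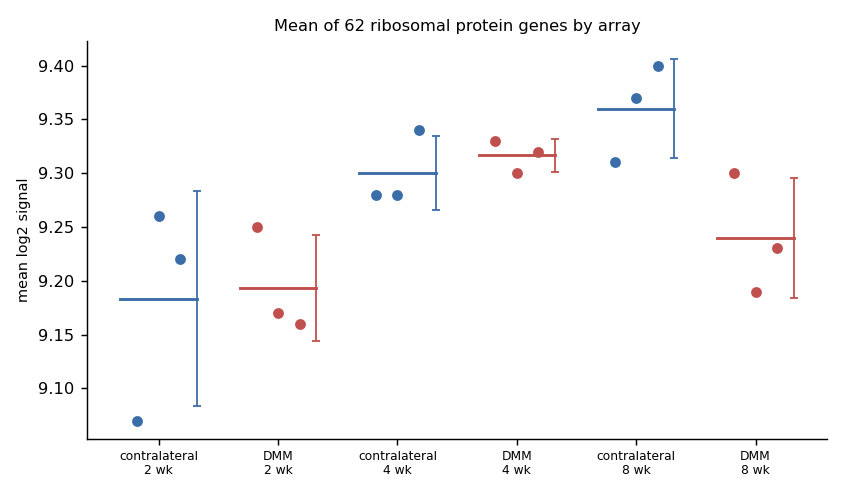
Mean log2 signal of the 62 members (vertical axis, not starting at 0) for each array of the 6 groups (horizontal axis), with lines for group means and bars for the SD of 3 arrays. The lowest array is a 2-week contralateral one at 9.07, and the 8-week groups sit side by side without overlap.

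The first question was whether surgery altered the expression of the ribosomal protein genes at each time. At 2 weeks, Rpl3l fell in DMM cartilage and none of the other 61 members passed the adjusted threshold. The 1 member called, by limma at a Benjamini-Hochberg adjusted p under 0.05 over all probes, stands against 6.63% of all probes called. At an unadjusted p under 0.05 there were 7 members, 5 higher and 2 lower in DMM, or 11.3% of the members against 21.5% of all probes. The 3 DMM arrays lay wholly above or below the 3 contralateral arrays in 16 members, or 25.8%, against 27% of all probes, with 10 above and 6 below. The share of all probes called depended on single arrays. It was 1.7% without replicate 2 of the DMM group, where 1.61% of the members were called, 1.84% without its replicate 3 and 3.15% without its replicate 1. Without DMM replicate 1 the members with an unadjusted p under 0.05 numbered 4 in place of 7. The median log2 fold change was 0.00, and 61 of 62 members lay within 0.5 of no change.

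At 4 weeks no member was called, against 0.639% of all probes. At an unadjusted p under 0.05 there were 3 members, Rps27l higher in DMM and Rpl3l and Rps3a1 lower, against 13% of all probes. The groups did not overlap in 12 members, 7 above and 5 below, or 19.4% against 18.3% of all probes. The median log2 fold change was 0.02, with 61 of 62 members within 0.5. Without replicate 1 of the contralateral group, or without any single DMM array, 1 member in place of 3 had an unadjusted p under 0.05.

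At 8 weeks no member was called, and 0% of all probes were. At an unadjusted p under 0.05 there were 5 members, all lower in DMM, which is 8.06% of the members against 8.67% of all probes. The groups did not overlap in 12 members, 2 above and 10 below, or 19.4% against 14.7% of all probes. The median log2 fold change was −0.07, with 18 members above 0 and 44 below, while the median of all probes was −0.003. Without single arrays the median ran from −0.114 to −0.061. Without replicate 3 of the contralateral group, 1 member in place of 5 had an unadjusted p under 0.05. The change of the DMM effect from 2 to 8 weeks had a median of −0.15 and that from 4 to 8 weeks a median of −0.13. In each of these tests of the change, 0 members and 0% of all probes were called. At an unadjusted p under 0.05, 8 members passed each, all in the negative direction, against 10.5% of all probes from 2 to 8 weeks and 7.57% from 4 to 8 weeks. These counts moved with single arrays. From 2 to 8 weeks the count was 5 without replicate 1 of the 2-week contralateral group and 13 without replicate 1 of the 8-week one. From 4 to 8 weeks it ran from 2 to 8, with 2 left without replicate 1 of the 4-week contralateral group and 3 without replicate 2 of the 4-week DMM or of the 8-week contralateral group. From 2 to 4 weeks 0 members were called by limma, 0% of all probes were, and 0 members had an unadjusted p under 0.05, against 5.44% of all probes.

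The typical size of a difference, whatever its direction, was smaller for the members than for all probes at 2, 4 and 8 weeks, and nearly the same at 8 weeks. The median absolute log2 fold change of the members was 0.109 at 2 weeks, where that of all probes was 0.173. It was 0.109 against 0.14 at 4 weeks and 0.159 against 0.165 at 8 weeks. Probes matched to the members in brightness were not compared here either. The medians of the subunits were given separately as well. Large-subunit members had medians of 0.00, 0.04 and −0.02 in order of time, and small-subunit members 0.04, 0.02 and −0.12.

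**Figure D3:**
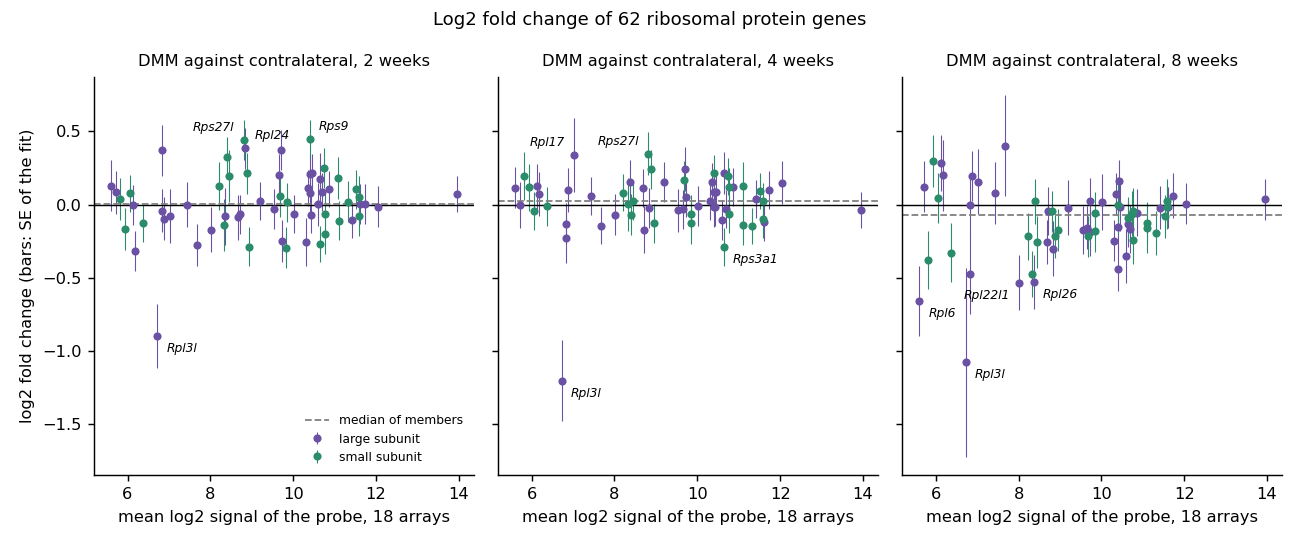
Log2 fold change of DMM against contralateral cartilage (vertical axis, bars for the SE of the fit) against the mean log2 signal of the probe (horizontal axis) for 62 members at 2, 4 and 8 weeks, with 4 genes named in each panel. Most members lie within 0.5 of 0, Rpl3l is the lowest point at each time, and the dashed median falls to −0.07 at 8 weeks.

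Rpl3l encodes the form of Rpl3 that is made in heart and skeletal muscle. At 2 weeks its log2 signal was 6.58, 6.67 and 6.51 in contralateral cartilage and 5.27, 6.27 and 5.53 in DMM cartilage. All 3 operated pools lay below all 3 contralateral ones, and the log2 fold change was −0.90 (SE 0.22, limma adjusted p = 0.0338), or 0.537-fold. This call was lost when replicate 1 of the contralateral group (adjusted p = 0.0726), replicate 3 of the same group (0.0645), replicate 1 of the DMM group (0.125) or its replicate 3 (0.152) was left out. It was also lost when all 18 arrays shared 1 estimate of the spread (0.366), and the log2 fold change stayed between −1.19 and −0.69 throughout these alternatives.

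At 4 weeks Rpl3l read 8.36, 7.52 and 7.96 in contralateral and 7.00, 6.07 and 7.17 in DMM cartilage. The groups again did not overlap, with a log2 fold change of −1.20 (SE 0.27, limma adjusted p = 0.0784) that did not pass. At 8 weeks it read 6.65, 8.62 and 6.39 in contralateral and 7.33, 5.41 and 5.69 in DMM cartilage. Here the groups overlapped, since 1 contralateral array stood high at 8.62 and 1 DMM array at 7.33. The log2 fold change of −1.08 had an SE of 0.65 (limma adjusted p = 0.687), and leaving out single arrays moved it between −1.67 and −0.38. In contralateral cartilage Rpl3l rose from 2 to 4 weeks by 1.36 (SE 0.20, limma adjusted p = 0.0289). The test of that rise lost its call without replicate 1 or 3 of either week, at adjusted p-values of 0.137 to 0.186, and in 1 fit of all 18 arrays (0.52). In DMM cartilage the difference from 2 to 4 weeks was 1.05 (SE 0.28, limma adjusted p = 0.0784). It passed without replicate 2 of the 2-week group (0.0257) or of the 4-week group (0.00632).

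Markers of skeletal muscle moved with Rpl3l. Their mean over 12 genes, contractile proteins such as the myosin heavy chain Myh4 and the troponin Tnni2 among them, was 7.83 to 8.66 in contralateral and 5.93 to 6.63 in DMM arrays at 2 weeks. At 4 weeks it was 8.94 to 9.75 and 7.52 to 7.89, and at 8 weeks 7.41 to 9.55 and 7.09 to 8.19. Of the 12 genes, 12 were called lower in DMM cartilage 2 weeks after surgery, with 11 at 4 weeks and 0 by 8 weeks. Of all probes, 6.63%, 0.639% and 0% were called in either direction at these times. The muscle gene not called at 4 weeks, Myh1, went the other way. Its mean was 8.64 (SD 0.99) in DMM and 7.85 (SD 1.76) in contralateral cartilage. The array with the highest Rpl3l signal was also the array with the highest muscle mean in 6 of 6 groups, and the lowest array was shared in 3 of 6. This was counted for Rpl3l alone, so how often other probes match the muscle mean is not known. None of the 12 can be placed at 0, since a log2 signal has no zero, but Ckm had a mean signal of 5.98, low on the array scale. The part of muscle RNA in the Rpl3l result was not tested.

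Rpl3 itself, the widely made partner that helps shape the peptidyl transferase centre, stayed within a narrow band. Its signal ran from 11.30 to 11.58 over the 18 arrays. The log2 fold change in DMM was −0.10 at 2 weeks (95% confidence interval −0.38 to 0.17), 0.04 at 4 weeks (−0.24 to 0.32) and −0.02 at 8 weeks (−0.36 to 0.32). These intervals lie within 0.5 of no change on the log2 scale.

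**Figure D4:**
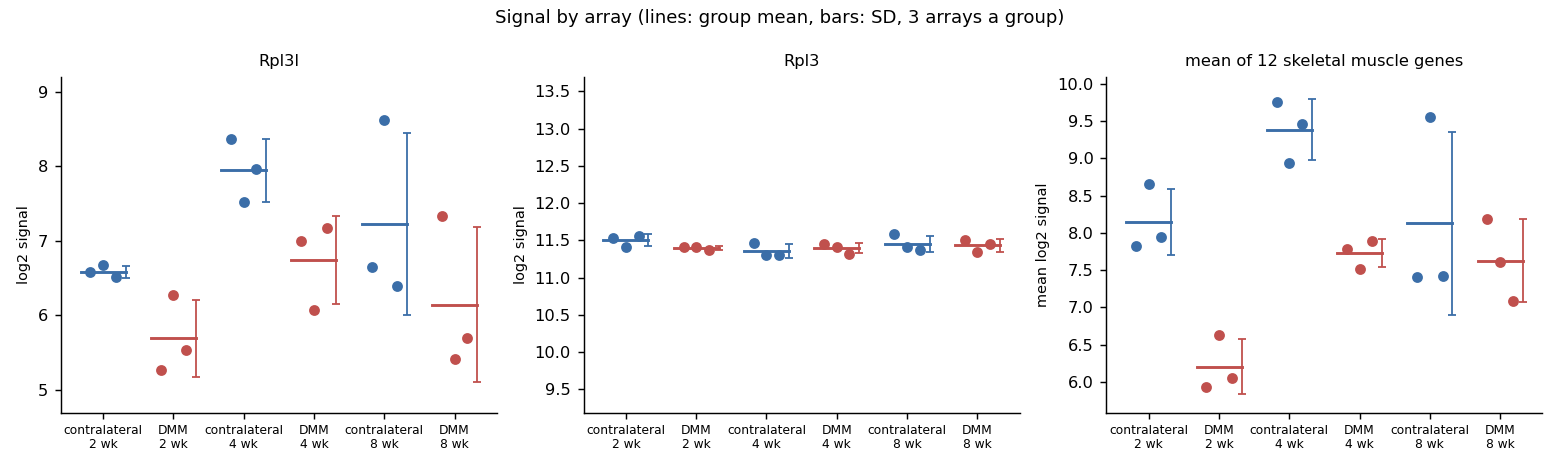
Log2 signal (vertical axes) of Rpl3l, of Rpl3 and of the mean of 12 skeletal muscle genes in each array of the 6 groups (horizontal axes), with lines for group means and bars for the SD of 3 arrays. Rpl3l and the muscle mean are highest in the 4-week contralateral arrays and in replicate 2 of the 8-week contralateral group, while Rpl3 stays between 11.30 and 11.58.

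Other close copies were read as well, some beside their partner, while Rps27 and Rpl7 were not analysed here. Rps27l, a copy of Rps27 known as a p53 target in human cells, read 8.71, 8.47 and 8.48 in contralateral and 9.01, 9.10 and 8.86 in DMM cartilage at 2 weeks. The DMM arrays all lay above, by 0.44 (SE 0.14, limma adjusted p = 0.0844), which did not pass the threshold. At 4 weeks it read 8.46, 8.68 and 8.95 against 9.07, 9.05 and 9.01, a difference of 0.35 (SE 0.15, limma adjusted p = 0.35). The operated pools were again all higher, and were nearly equal to each other. At 8 weeks the groups overlapped, at 8.80, 8.76 and 8.82 against 8.69, 8.80 and 8.75.

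Rpl22l1, the copy of the RNA-binding protein Rpl22, read 8.06, 8.43 and 8.68 in contralateral and 7.90, 7.90 and 7.76 in DMM cartilage at 8 weeks. The difference of −0.53 (SE 0.19, limma adjusted p = 0.504) left no overlap between the groups and did not pass. Rpl22 had the highest log2 fold change of any member at that time, 0.40 (SE 0.35, limma adjusted p = 0.78). It rested on 1 array, since the DMM pools read 7.53, 7.56 and 8.90 and the difference was −0.05 without replicate 3. Rpl39, which lines the exit tunnel for the nascent chain, read 10.50, 10.78 and 10.69 in contralateral and 10.09, 10.32 and 10.26 in DMM cartilage at 8 weeks. Its groups did not overlap (−0.44, SE 0.16, limma adjusted p = 0.504). Its testis-type copy Rpl39l stayed at signals of 5.43 to 6.17, low on the array scale, and its log2 fold changes ran from 0.00 to 0.12 in size. Rps4x, the X-linked form, lay above the contralateral arrays at 2 weeks (0.25) and 4 weeks (0.19) and overlapped at 8 weeks (−0.06). Rps4l, with a mean of 5.82 low on the array scale, and Rpl7l1 overlapped between the groups at every time.

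Among the members of the small subunit, Rps9, whose yeast counterpart helps keep decoding accurate, gave the highest log2 fold change at 2 weeks. It read 10.01, 10.05 and 10.15 in contralateral and 10.49, 10.46 and 10.62 in DMM cartilage. The difference of 0.45 (SE 0.13, limma adjusted p = 0.0605) lay just outside the threshold. It passed when low signals were left out (0.0366) and when the variance followed signal (0.0217). It did not pass in 1 fit of all 18 arrays (0.0721), with array weights (0.0508) or with the replicate number as a block (0.094). Nor did it pass with any single array left out (0.0666 to 0.245). A second probe of Rps9 gave 0.30 with the same order. At 4 weeks the brightest probe read 10.33, 10.34 and 10.37 against 10.56, 10.60 and 10.52, a smaller difference of 0.21 with no overlap. There the second probe gave 0.03, and its groups overlapped. At 8 weeks the arrays overlapped, and the difference was −0.01.

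Rps13 was the 1 member whose groups stood apart at all 3 times, and it changed sides. At 2 weeks it read 8.45, 8.63 and 8.67 in contralateral and 8.98, 8.72 and 8.69 in DMM cartilage. At 4 weeks it read 8.82, 9.01 and 8.97 against 9.24, 9.06 and 9.22. Both times the operated pools were higher, by 0.21 and 0.24. At 8 weeks they were lower by a similar amount, with 8.96, 8.99 and 9.01 in contralateral and 8.91, 8.72 and 8.68 in DMM cartilage, a difference of −0.22. The test of the change gave −0.43 from 2 to 8 weeks (SE 0.18, limma adjusted p = 0.41) and −0.46 from 4 to 8 weeks (SE 0.18, limma adjusted p = 0.579), neither past the threshold. A dim second probe of Rps13, with a mean of 5.94, gave a fold change of the other sign at 2 and 4 weeks.

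Rps3a1 lay below at 2 and 4 weeks. It read 10.69, 10.64 and 10.77 in contralateral and 10.49, 10.38 and 10.43 in DMM cartilage at 2 weeks, and 10.92, 10.81 and 10.84 against 10.61, 10.46 and 10.63 at 4 weeks. The differences of −0.27 (limma adjusted p = 0.246) and −0.29 (limma adjusted p = 0.368) did not pass. Rps23 and Rps25, the latter needed for initiation at viral internal entry sites, lay below at 2 weeks (both −0.29) and at 8 weeks (both −0.18). Rps6, the target of the S6 kinases, differed by 0.32 at 2 weeks (limma adjusted p = 0.204), −0.07 at 4 weeks and 0.02 at 8 weeks. Over all 62 members the groups stood apart in no week for 31 genes, in 1 week for 23, in 2 weeks for 7 and in 3 weeks for Rps13. The fold change was negative at all 3 times for 15 genes and positive at all 3 for 3 (Rpl32, Rpl41 and Rps2). These counts across weeks were not made over all probes, so they are not read as a trait of the members. In single weeks the groups stood apart in 27%, 18.3% and 14.7% of all probes at 2, 4 and 8 weeks.

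The stalk proteins Rplp0, Rplp1 and Rplp2 recruit elongation factors to the ribosome. Rplp0 read 6.51, 6.31 and 7.01 in contralateral and 6.97, 7.08 and 6.90 in DMM cartilage at 2 weeks. The groups overlapped through the third contralateral array, and the difference was 0.37 (limma adjusted p = 0.256), or 0.57 (limma adjusted p = 0.0487) without that array. A second, dimmer probe of Rplp0 gave the other sign at 2 weeks, −0.15. At 8 weeks it read 7.29, 6.49 and 6.84 against 6.45, 6.83 and 5.92. That difference was −0.47 (SE 0.28, limma adjusted p = 0.678), with wide overlap, and the second probe gave −0.27. Rplp0 signals were low on the array scale, with a mean of 6.84, and its replicate SD of 0.324 was more than double the members' median. Rplp1 differed by 0.17, 0.21 and −0.13 and Rplp2 by −0.25, 0.05 and 0.02 at 2, 4 and 8 weeks, all with overlap.

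Of the members that serve as reference genes, 5 are given here, and none of these passed the test at any time. Rplp0, also used as a reference gene, is given above and was less steady than these, with a replicate SD of 0.324. Rpl32 ran from 10.21 to 10.53 over the 18 arrays, with log2 fold changes of 0.11, 0.15 and 0.07 at 2, 4 and 8 weeks. Its 95% confidence interval was −0.16 to 0.39 at 2 weeks, −0.13 to 0.43 at 4 weeks and −0.25 to 0.39 at 8 weeks. Rpl19 differed by −0.07, −0.02 and 0.16, Rpl13a by 0.00, 0.06 and 0.08, Rpl4 by −0.10, 0.10 and 0.19 and Rps29 by 0.18, 0.13 and −0.16. Rpl19 lay above the contralateral arrays at 8 weeks and Rpl32 at 4 weeks, and the other 3 overlapped throughout.

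The remaining high and low members at each time were as follows. At 2 weeks Rpl24, which bridges the subunits, read 8.46, 8.54 and 8.58 in contralateral and 9.12, 8.90 and 8.71 in DMM cartilage, a difference of 0.38 (limma adjusted p = 0.143). Rpl27 differed by 0.37 (limma adjusted p = 0.144) and Rpl21 by −0.32 (limma adjusted p = 0.205), each without overlap. A second probe of Rpl21, nearly as bright, gave −0.05 with overlap, and both of its probes had means under the median of all probes. At 4 weeks Rpl17, which lines the peptide tunnel, differed by 0.34 (SE 0.25) with overlap, while Rplp0 differed by −0.23 and Rpl30 by −0.17. At 8 weeks Rpl6 read 5.39, 6.30 and 6.10 in contralateral and 5.09, 5.32 and 5.41 in DMM cartilage. The difference of −0.66 (SE 0.24, limma adjusted p = 0.512) came from a probe with a mean of 5.61, near the bottom of the array scale. Rpl26, which also binds p53 mRNA in human cells, differed by −0.53 (SE 0.19, limma adjusted p = 0.501) without overlap, and Rps7 by −0.47 (SE 0.16, limma adjusted p = 0.485), likewise. Above 0 at 8 weeks were Rps15a (0.30) and Rpl14 (0.28), both from probes with a mean under 6.2.

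**Figure D5:**
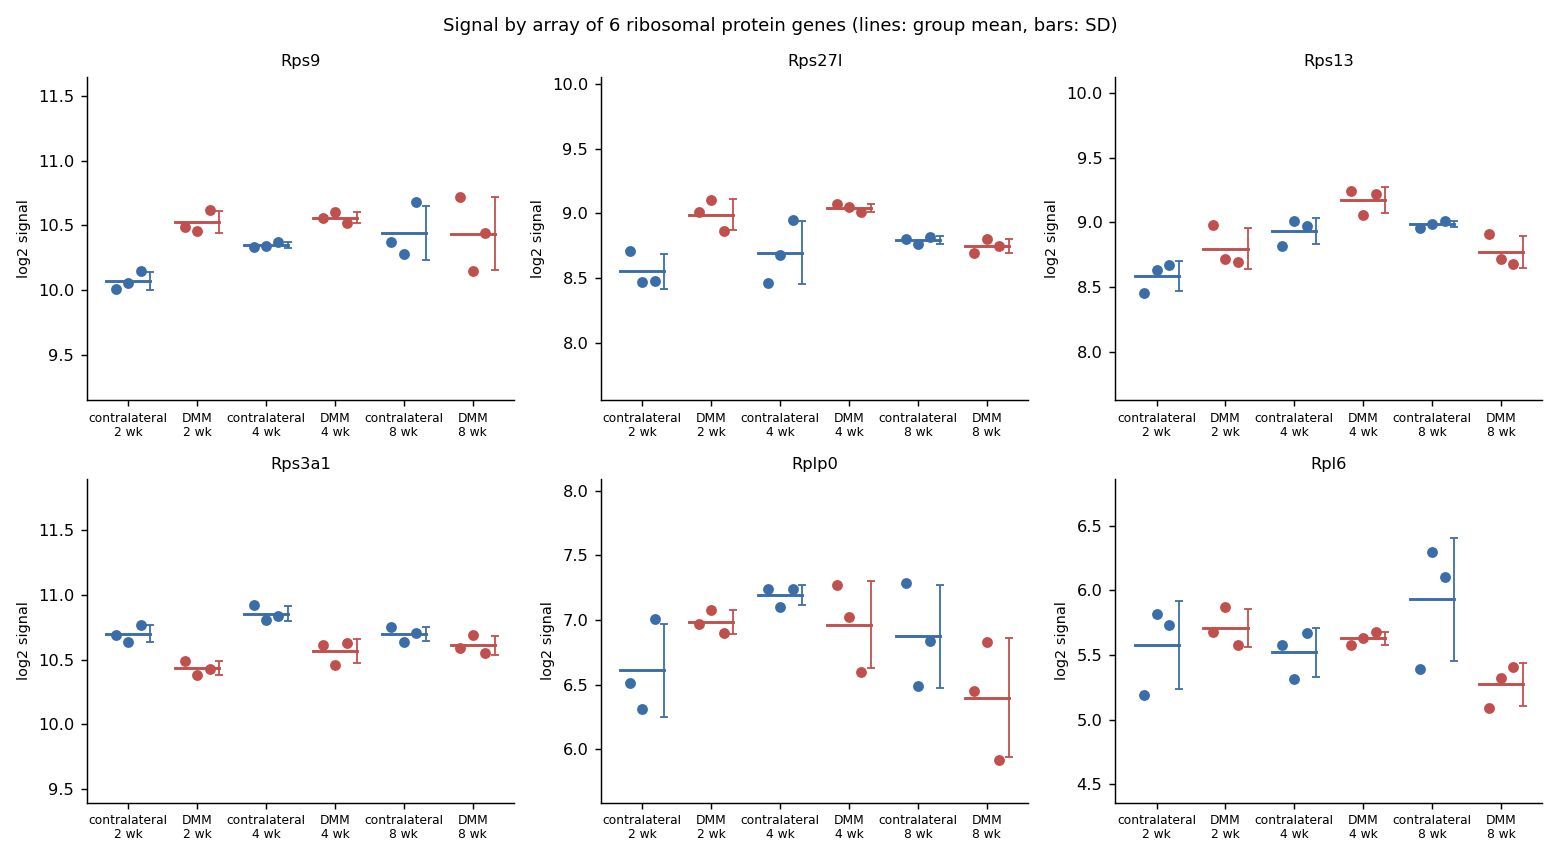
Log2 signal (vertical axes, each spanning 2.5 units) of Rps9, Rps27l, Rps13, Rps3a1, Rplp0 and Rpl6 in each array of the 6 groups (horizontal axes), with lines for group means and bars for the SD of 3 arrays. Rps9 and Rps27l stand apart at 2 and 4 weeks, Rps13 changes sides at 8 weeks, and Rplp0 and Rpl6 have broad replicate bars.

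Genes with several probes showed how far a single fold change can be read. Of the 16 such genes, probes differed in sign in 6 at 2 weeks, in 7 genes at 4 weeks and in 10 genes at 8 weeks. Rpl27a and Rps24, with 4 probes each, and Rpl7l1 differed in sign among their probes at every time, Rps13 at 2 and 4 weeks, and Rpl38, Rpl23 and Rpl31 at 4 and 8 weeks. Rpl4 did so at 2 and 8 weeks, Rplp0 at 2 weeks, and Rpl29, Rpl30 and Rps2 at 8 weeks. The widest span was 0.52 at 2 weeks (Rplp0), 0.64 at 4 weeks (Rpl29) and 0.90 at 8 weeks (Rpl31). The 3 probes of Rpl31 ran from −0.35 to 0.55 at 8 weeks, the brightest giving the lowest value. No second probe was called in any comparison.

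The second question was how the members moved with time after surgery in each knee, where age moved with time as well. In DMM cartilage no member was called from 2 to 4 weeks, against 2.54% of all probes. At an unadjusted p under 0.05 there were 10 members, all higher at 4 weeks, or 16.1% against 14.6% of all probes. The median was 0.10, with 49 members above 0 and 13 below, and Rps25 (0.42), Rpl26 (0.42) and Rplp2 (0.40) followed Rpl3l. The count was 6 without replicate 2 or 3 of the 2-week group. At the low end were Rpl7l1 (−0.24), Rpl23 (−0.11) and Rpl36a (−0.08). From 2 to 8 weeks no member was called against 0.639% of all probes, and 4 had an unadjusted p under 0.05, or 6.45% against 13.6%. That count was 2 without replicate 1 of the 2-week group and 1 without its replicate 2. Rps25 (0.44) and Rplp2 (0.38) were the higher of these and Rplp0 (−0.58) and Rpl6 (−0.44) the lower. Without such a p, Rpl22 (0.66) and Rpl3l (0.45) lay high and Rps20 (−0.35) low. From 4 to 8 weeks no member was called against 0.0739% of all probes. There 7 had an unadjusted p under 0.05, all lower at 8 weeks, or 11.3% against 10.8%, with Rplp0 (−0.56), Rpl26 (−0.44) and Rps13 (−0.40) lowest after Rpl3l (−0.60). The count was 1 in place of 7 without replicate 1 of the 4-week group, 3 without its replicate 2 or without replicate 3 of the 8-week group, and 4 without replicate 3 of the 4-week group. Highest were Rpl22 (0.34), Rpl39l (0.27) and Rpl19 (0.22). The Rplp0 means in DMM cartilage were 6.98, 6.96 and 6.4 at 2, 4 and 8 weeks. On its dimmer second probe they were 6.23, 6.39 and 6.2, so the size of these Rplp0 changes rested on 1 probe.

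In contralateral cartilage Rpl3l was the 1 member called from 2 to 4 weeks, against 0.148% of all probes. At an unadjusted p under 0.05 there were 6 members, all higher at 4 weeks, or 9.68% against 7.33% of all probes, among them Rplp0 (0.58), Rpl24 (0.48) and Rps6 (0.47). Lowest were Rpl17 (−0.40), Rpl21 (−0.29) and Rps15a (−0.17). The Rplp0 means in contralateral cartilage were 6.61, 7.19 and 6.87 at 2, 4 and 8 weeks, but 6.37, 6.43 and 6.47 on its second probe. The second probe of Rpl21 had means of 5.98 and 5.99 at 2 and 4 weeks. From 2 to 8 weeks no member was called, and 0% of all probes were. Here 13 members had an unadjusted p under 0.05, 12 of them higher at 8 weeks, or 21% against 7.22% of all probes. The median was 0.19, the farthest from 0 of the 9 comparisons of 2 groups, with 49 members above 0 and 13 below. Rps16 (0.57), Rpl37 (0.52) and Rps7 (0.47) had the highest values after Rpl3l (0.63), while Rpl17 (−0.52), Rps15a (−0.29) and Rpl7l1 (−0.28) had the lowest.

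This shift with time in the contralateral knee rested in part on 1 array. Replicate 1 of the 2-week contralateral group had the lowest mean over the members, 9.07, where the other two of that group had 9.26 and 9.22. Without it 2 members in place of 13 had an unadjusted p under 0.05 from 2 to 8 weeks, and the median was 0.12. Without replicate 3 of the 8-week group, which had the highest mean of the 18 arrays, 9.40, the count was 5 and the median 0.17. The count was also 7 without replicate 3 of the 2-week group and 8 without replicate 2 of the 8-week group, and the median stayed above 0 without any single array. Rps16 shows this in its values of 7.79, 8.46 and 8.17 at 2 weeks and 8.52, 8.61 and 8.99 at 8 weeks. From 4 to 8 weeks no member was called, 0% of all probes were, and 1 member, Rps19 (0.34), had an unadjusted p under 0.05, against 7.34% of all probes. Rpl6 (0.41) and Rps4l (0.37) lay highest there, both from probes near the bottom of the array scale, with means of 5.61 and 5.82. Rpl3l (−0.72), Rplp0 (−0.32) and Rps6 (−0.26) lay lowest.

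Of the wider translation machinery, 3 genes passed the test at 2 weeks. Of 48 genes of ribosome biogenesis, 27 initiation factors and their partners, 12 elongation factors, 72 proteins of the mitochondrial ribosome and 14 genes of mTOR and S6 kinase signalling, 1 was called higher and 2 lower in DMM cartilage at 2 weeks, which is 1.73% of the 173 genes against 6.63% of all probes. At 4 and 8 weeks limma called 0 of them, against 0.639% and 0% of all probes. There were 22 genes with an unadjusted p under 0.05 at 2 weeks, or 12.7% against 21.5% of all probes, 12 genes at 4 weeks, or 6.94% against 13%, and 9 genes at 8 weeks, or 5.2% against 8.67%. Pabpc1, the poly(A)-binding protein that joins the mRNA ends, rose at 2 weeks from 7.73 ± 0.14 to 8.28 ± 0.03 (SD, n = 3), by 0.55 (SE 0.13, limma adjusted p = 0.0309). Eef1a2, the form of elongation factor 1A made in muscle and neurons, fell from 9.54 ± 0.27 to 8.76 ± 0.22 (SD, n = 3), by 0.78 (SE 0.17, limma adjusted p = 0.0237). Rheb, the GTPase that activates mTORC1, fell from 10.22 ± 0.26 to 9.46 ± 0.33 (SD, n = 3), by 0.76 (SE 0.19, limma adjusted p = 0.0365). Eef1a2 fell together with the muscle genes given above, and the part of muscle RNA in its fall was not tested. The medians of these lists at 2 weeks lay between −0.03 and 0.09, beside 0.00 for the ribosomal proteins and −0.002 for all probes.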

How the data were processed

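RNA was read on Illumina WG-6 bead arrays, 1 pool per array. The authors used lumi 2.8.0 (R 2.15.0) to quantile-normalise the signals, and the deposited log2 values of 22999 probes were used as they stood (range 4.62 to 14.67). Such scaling removes any shift shared by all genes. A further table, with 36 columns of signals and detection p-values, was not used, since its column names match no label, and no filter on detection was applied. Chips were not named in the labels, so chip was not fitted as a block. The members and gene lists were chosen with earlier results of these data known.

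Groups were set against each other in limma 3.58.1 (R 4.3.3, statmod 1.5.0), 6 arrays to a fit, and changes of the DMM effect in 1 fit of all 18. P-values were adjusted by Benjamini-Hochberg over all probes at 0.05. A gene was called when any of its probes passed. The fits were tested on simulated shifts. Members named were those called, the 3 highest and 3 lowest of each comparison of 2 groups, close copies and their partners, stalk proteins, reference genes, genes with discordant probes and the extremes of replicate spread, while Rps7 and Rpl41 were named after their values were seen. Rpl10, Rpl7, Rps27 and Rps18 were not analysed here. Alternatives were 3 other normalisations, a fit of all arrays, a variance trend, array weights, a replicate block, brighter probes only, the mean of a gene's probes and leaving out each array. Leaving out Rpl3l was added after seeing the data. Figures used matplotlib 3.10.9 in Python 3.11.15.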

Additional observations from a re-analysis of the deposited data

How the results depend on the processing

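Counts of members called were 0 or 1 under most settings. At 2 weeks the count in DMM against contralateral cartilage was 0 in 1 fit of all 18 arrays, 2 with a variance trend and 2 with brighter probes only (Rpl3l and Rps9 both times), and 0 to 1 when single arrays were left out. Without the third contralateral array the 1 gene called was Rplp0. From 2 to 4 weeks in DMM cartilage the count was 1 with a variance trend (Rplp2) and 0 to 1 without single arrays. From 2 to 4 weeks in contralateral cartilage it was 0 in 1 fit of all 18 arrays and 0 to 1 without single arrays. The other comparisons called 0 members under all settings except the one below. Medians over the members moved by less than the spread of their array means under each setting, except from 4 to 8 weeks in DMM cartilage, where leaving out single arrays gave −0.092 to 0.003. Leaving out Rpl3l changed no median by more.

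Whether the replicate numbers pair the samples is not known, since the labels do not say which pools shared mice. Arrays of DMM and contralateral cartilage with the same number had correlations of −0.102 to 0.135 between their deviations from the group means, over all probes. At 4 weeks every array correlated best with its own number (0.0554 to 0.135), as a hint from the data, while at 2 weeks this held for replicate 3 and at 8 weeks for no number. With the replicate number as a block, Rpl3l was called at 4 weeks (count 1, limma adjusted p = 0.0139). The contralateral count from 2 to 4 weeks was 0 with the block (Rpl3l, limma adjusted p = 0.0892). The block changed no other count.

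Signals at either end of the array scale limit what can be seen: 8 members had means below the median of all probes, and Rpl23 lay near the ceiling. With 3 pools a group the median SE of a member's log2 fold change was 0.139, 0.134 and 0.161 at 2, 4 and 8 weeks, and differences of this size did not pass the adjusted threshold. Without single arrays the share of all probes called ran from 1.7% to 6.84% at 2 weeks and from 0.217% to 0.835% at 4 weeks in DMM against contralateral cartilage.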
